A study of Homo sapiens with 2 samples.

Results

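Immediate early response genes are genes that cells transcribe within minutes of a growth factor, stress or handling stimulus, before any new protein has to be made. The set described here holds 10 of them, FOS, FOSB, FOSL1, JUN, JUNB, JUND, EGR1, ATF3, IER2 and IER3, taken from the annotation by their gene names. They are 10 of 57110 gene entries, of which 17806 had a count, and all 10 were found. Together they held 16543 of 13052893 counts, or 0.127%.

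FOS and JUN proteins pair through leucine zippers to form AP-1, a transcription factor that binds DNA near growth and stress genes. EGR1 is a zinc finger transcription factor, ATF3 is a stress-induced relative of the AP-1 proteins, and IER2 and IER3 are small early response proteins. Many early response transcripts are short-lived, and the promoters of FOS and EGR1 are known to answer to the MAP kinase route through serum response factor and its ETS partners.

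The study pooled the human ovarian cancer lines IGROV1, SK-OV-3 and COV504 in equal parts after trypsin had lifted them from their dishes, and no treatment or time is given. The pool was made into single-cell libraries for 2 platforms, Illumina and nanopore PromethION, with 1 library each. All values come from the PromethION library, and all 2462 of its barcodes were also in the Illumina list, the only Illumina data used here. The labels do not say which line a cell came from.

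Cells were put into lines by marker genes that are not among the 10. A barcode with at least 1000 counts was called ERBB2-high where ERBB2, NNMT, TSPAN1 and DHRS2 held at least 75% of the marker counts. RARRES2-high cells were called by RARRES2 and TMEM100, and FOLR1-high cells by FOLR1, CLDN3, DEFB1 and CXCL14. This gave 648 ERBB2-high, 473 RARRES2-high and 765 FOLR1-high cells, with median totals of 4953, 6262 and 5289 counts. Genes outside the rule followed it: GRB7 and MIEN1, neighbours of ERBB2, had 56.4 and 528 CPM, counts per 1000000, in ERBB2-high cells, against at most 28.8 and 143 elsewhere. ERBB2-high cells are therefore called SK-OV-3-like, whereas no line name is given to the others. Between 79 and 220 cells of a line were placed on fewer than 5 marker counts.

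RGCC had 237 counts in RARRES2-high cells and 0 in the others, which allows a share of up to 0.463% of the 648 ERBB2-high and 0.392% of the 765 FOLR1-high cells with a count, a limit on cells with a count and not on cells that express the gene. RGCC was scarce, with a count in 28.8% of RARRES2-high cells. ANKRD1, another gene of that line outside the rule, had a count in 36.2% of its cells, 0.772% of ERBB2-high and 1.7% of FOLR1-high cells. MOXD1, a FOLR1-high gene, had one in 19.3% of its cells and 4.48% of ERBB2-high cells. Leukocyte markers summed to at most 0.443 CPM in any line. Endothelial markers summed to 1.45 to 31.4 CPM, nearly all CDH5 in RARRES2-high cells, and fibroblast markers to 3.99 to 95.6 CPM, nearly all COL1A1 in ERBB2-high cells. CDH5 had a count in 14.8% of RARRES2-high cells and COL1A1 in 10.0% of ERBB2-high cells. The other markers of these lists, PECAM1, VWF, COL3A1 and PDGFRB, had at most 1.77 CPM in any line.

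Cells of 1 library are not replicates, so no test between lines was possible. Each CPM below is the sum of a gene's counts over the cells of a line scaled to the total of that line. Its 95% interval covers counting error only, and a difference in cell number or in RNA per cell does not enter it. Spread between cells does not enter it either, so it is too narrow for genes whose counts vary between cells beyond counting error.

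The SK-OV-3-like cells carried the most immediate early RNA. The 10 genes summed to 2626.1 CPM in ERBB2-high cells (interval 2572.2 to 2680.8), 925 in RARRES2-high cells (893 to 958) and 534 in FOLR1-high cells (513 to 556). IER3 alone made up 43.2% of that sum in ERBB2-high cells, 20.8% in RARRES2-high and 12.7% in FOLR1-high cells. Without IER3 the sums were 1492.6, 733 and 466 CPM, in the same order. A single ERBB2-high cell had a median of 24.0 counts of the 10 genes per 10000 counts and a highest value of 95.7. The medians were 8.19 and 4.71 in RARRES2-high and FOLR1-high cells, with highest values of 48.4 and 38.1, so the cells of the lines overlapped.

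**Figure D1:**
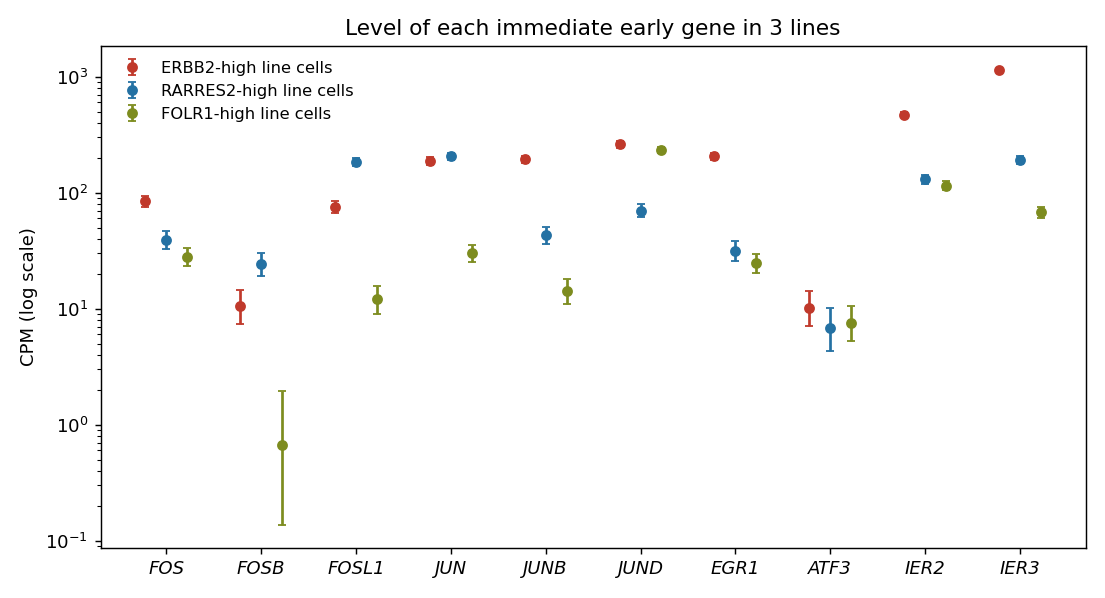
Level of each of the 10 genes in CPM (log axis) in ERBB2-high, RARRES2-high and FOLR1-high cells. Points are sums over all cells of a line and bars are 95% counting intervals. IER3 is at 1133.5 CPM in ERBB2-high cells and 67.8 in FOLR1-high cells, while the intervals of ATF3 overlap in all 3 lines.

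The 3 members of the FOS family did not share a pattern. FOS (chromosome 14, 75278774 to 75282230, GRCh38), the best known AP-1 subunit, had 84.0 CPM in ERBB2-high cells (74.6 to 94.2), 39.1 in RARRES2-high (32.7 to 46.3) and 28.1 in FOLR1-high cells (23.4 to 33.5). The intervals of the last pair overlapped slightly, and their ratio was 1.39 (1.08 to 1.79). FOSL1 (chromosome 11, 65892049 to 65900526), which encodes FRA1, an AP-1 subunit often high in mesenchymal cells, was highest in another line. It had 184 CPM in RARRES2-high cells (170 to 199), 75.5 in ERBB2-high (66.6 to 85.3) and 12 in FOLR1-high cells (8.98 to 15.6). FOSL1 was thus 2.44-fold higher in RARRES2-high than in ERBB2-high cells (interval of the ratio 2.11 to 2.83) and 15.4-fold higher than in FOLR1-high cells (11.6 to 20.7).

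FOSB (chromosome 19, 45467995 to 45475179), another FOS relative, followed FOSL1 in its order of lines. It had 82 counts in RARRES2-high cells (24.3 CPM, 19.3 to 30.1), 36 in ERBB2-high (10.5 CPM, 7.32 to 14.5) and 3 in FOLR1-high cells (0.664 CPM, 0.137 to 1.94). The ratio of RARRES2-high to FOLR1-high cells was 36.5 with a counting interval of 12.1 to 181. All of FOSB lies within ERCC1, a DNA repair gene on the opposite strand, and no source used here says whether strand was used in counting. ERCC1 itself had 78.7, 41.4 and 53.4 CPM in ERBB2-high, RARRES2-high and FOLR1-high cells. The part of ERCC1 reads in FOSB was not tested. Opposite-strand genes also cover part of IER2 (AC011446.2, 1123 bases) and of IER3 (IER3-AS1, 394 bases), and their part was not tested either.

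JUN family genes encode the other AP-1 subunits, and their levels differed between lines in different ways. JUN (chromosome 1, 58780788 to 58784327) had 186 CPM in ERBB2-high cells (172 to 201) and 205 in RARRES2-high cells (190 to 220), with overlapping intervals, against 29.9 in FOLR1-high cells (25.1 to 35.4). JUNB (chromosome 19, 12791496 to 12793315) fell from line to line, with 194 CPM in ERBB2-high (179 to 209), 42.9 in RARRES2-high (36.2 to 50.5) and 14.2 in FOLR1-high cells (10.9 to 18.1). JUNB lies within HOOK2 on the opposite strand, and HOOK2 had 17.4, 5.92 and 9.08 CPM (6.52 to 12.3) in the same lines. The part of HOOK2 reads in JUNB was not tested. JUND (chromosome 19, 18279760 to 18281622), known for steady rather than induced expression, had nearly the same level in FOLR1-high as in ERBB2-high cells. It had 261 CPM in ERBB2-high (244 to 279), 69.9 in RARRES2-high (61.2 to 79.4) and 234 in FOLR1-high cells (220 to 248).

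Within the JUN family the balance therefore differed by line. From FOLR1-high to RARRES2-high cells JUN was 6.84-fold higher (5.68 to 8.29), whereas JUND was 3.35-fold higher in the opposite direction (2.90 to 3.87). The JUND ratio of ERBB2-high to FOLR1-high cells was 1.12 (1.02 to 1.22). Its direction turned when mitochondrial and ribosomal protein genes were left out of the totals, from 0.15 to -0.20 on the log2 scale.

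EGR1 (chromosome 5, 138465490 to 138469315) had its highest summed level in the SK-OV-3-like cells. It had 205 CPM there (190 to 220), against 31.7 in RARRES2-high (26 to 38.3) and 24.8 in FOLR1-high cells (20.4 to 29.8). EGR1 was 6.46-fold higher in ERBB2-high than in RARRES2-high cells (5.26 to 7.99), and 8.24-fold higher than in FOLR1-high cells (6.75 to 10.2). The lower pair had overlapping intervals.

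ATF3 (chromosome 1, 212565334 to 212620777) was scarce and alike in level. It had 35, 23 and 34 counts in ERBB2-high, RARRES2-high and FOLR1-high cells, or 10.2, 6.81 and 7.53 CPM, with overlapping intervals. The ratio of ERBB2-high to RARRES2-high cells was 1.49 with an interval of 0.858 to 2.65, so a difference of that size was not detectable at this depth.

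IER2 and IER3 were both highest in ERBB2-high cells. IER2 (chromosome 19, 13150415 to 13154908), a nuclear early response protein, had 467 CPM in ERBB2-high cells (445 to 491), 130 in RARRES2-high (118 to 142) and 115 in FOLR1-high cells (106 to 126). The intervals of the last pair overlapped, and the sign of their difference turned with the other scaling, from 0.16 to -0.13 on the log2 scale. IER3 (chromosome 6, 30743199 to 30744554), a regulator of survival and of ERK signalling, had 1133.5 CPM in ERBB2-high (1098.2 to 1169.7), 192 in RARRES2-high (178 to 208) and 67.8 in FOLR1-high cells (60.4 to 75.8). The 16.7-fold ratio of ERBB2-high to FOLR1-high cells (14.9 to 18.9) was the largest of the 10 genes for that pair of lines, FOSB at 15.7 (4.97 to 79.9) being next.

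Members past 2-fold were counted after 10 CPM were added to both lines, among the 8486 genes with at least 100 counts over the 3 lines. ATF3, with 92 counts, was not among them. ERBB2-high over RARRES2-high cells, 5 of the 9 remaining members were higher, beside 11.2% of all genes, and FOSL1 was the 1 lower, beside 8.06%. Against FOLR1-high cells, 7 of 9 were higher in ERBB2-high cells, beside 14.2% of all genes, and 0 were lower, beside 5.37%. In RARRES2-high over FOLR1-high cells 5 of 9 were higher, beside 13.3%, and JUND was the 1 lower, beside 7.14%. FOSB, 1 of those 5, had 82 of its 121 counts in RARRES2-high cells and so passed the count minimum only through them. With a marker share of at least 90% the 5 became 3, FOSB having too few counts and JUNB lying just under 2-fold. JUNB also fell just under it, from 1.13 to 0.992 on the log2 scale, with mitochondrial and ribosomal protein genes left out of the totals. Members higher in ERBB2-high cells than in both other lines were 4, JUNB, EGR1, IER2 and IER3, beside 4.98% of all genes. FOSL1 was the 1 member higher in RARRES2-high cells than in both others, beside 4.82% of all genes, and 0 members stood so in FOLR1-high cells, beside 2.90%.

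These ratios share a tilt that all genes show. The median log2 ratio of all tested genes was 0.15 for ERBB2-high over RARRES2-high, 0.32 for ERBB2-high over FOLR1-high and 0.14 for RARRES2-high over FOLR1-high cells. Members had medians of 1.76, 1.96 and 1.13 on the same scale. Mitochondrial and ribosomal protein genes held 14.8% of the counts in ERBB2-high, 18.1% in RARRES2-high and 33.6% in FOLR1-high cells. With these genes left out of the totals, the median of all genes moved by -0.04, -0.25 and -0.22 for the 3 ratios. Relative to the median of all genes, IER3 was 3.56 higher on the log2 scale in ERBB2-high than in FOLR1-high cells, JUNB 2.76, EGR1 2.31 and JUN 1.98.

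Promoter windows were searched for known early response elements. RefSeq windows (GRCh38.p14) from 250 bases before to 50 bases after the start were matched for 8 of the 10 members, FOSL1 and IER3 being the others, and ATF3 had 2 windows. EGR1, JUNB, FOS and IER2 are shown because they were highest in ERBB2-high cells, and JUND because its levels in ERBB2-high and FOLR1-high cells were nearly the same. Capitals mark matches, on either strand, to the CArG box bound by serum response factor, the CRE TGACGTCA, its core TGACGT, the AP-1 site TGANTCA, the ETS core CCGGAAGT, the EGR site GCGNGGGCG and the TATA box TATAAA. The CRE core is contained in the CRE and was added after the windows had been seen. Each line reads 5′ to 3′ along the gene.
EGR1: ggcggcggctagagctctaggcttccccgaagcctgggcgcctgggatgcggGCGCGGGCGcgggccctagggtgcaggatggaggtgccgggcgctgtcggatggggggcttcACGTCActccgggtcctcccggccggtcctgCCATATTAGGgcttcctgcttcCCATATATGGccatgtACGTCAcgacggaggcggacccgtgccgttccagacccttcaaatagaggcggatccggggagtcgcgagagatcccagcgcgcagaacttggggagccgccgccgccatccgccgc
FOS: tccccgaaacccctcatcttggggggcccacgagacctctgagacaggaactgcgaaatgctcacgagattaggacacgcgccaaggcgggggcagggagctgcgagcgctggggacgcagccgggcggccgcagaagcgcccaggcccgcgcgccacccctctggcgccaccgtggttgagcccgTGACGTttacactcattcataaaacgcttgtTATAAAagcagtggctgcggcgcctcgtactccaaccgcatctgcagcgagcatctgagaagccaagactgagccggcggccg
JUNB: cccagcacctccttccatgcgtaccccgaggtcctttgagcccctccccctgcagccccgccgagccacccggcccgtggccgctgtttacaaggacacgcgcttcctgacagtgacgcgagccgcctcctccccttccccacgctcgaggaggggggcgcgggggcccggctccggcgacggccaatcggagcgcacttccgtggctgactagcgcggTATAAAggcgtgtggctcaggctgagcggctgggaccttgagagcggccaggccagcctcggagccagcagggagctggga
JUND: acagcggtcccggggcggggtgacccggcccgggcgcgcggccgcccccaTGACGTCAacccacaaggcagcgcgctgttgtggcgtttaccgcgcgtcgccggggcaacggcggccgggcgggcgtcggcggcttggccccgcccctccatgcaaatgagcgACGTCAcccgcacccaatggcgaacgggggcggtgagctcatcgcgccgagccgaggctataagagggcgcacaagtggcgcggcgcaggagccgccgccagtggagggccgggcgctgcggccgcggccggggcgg
IER2: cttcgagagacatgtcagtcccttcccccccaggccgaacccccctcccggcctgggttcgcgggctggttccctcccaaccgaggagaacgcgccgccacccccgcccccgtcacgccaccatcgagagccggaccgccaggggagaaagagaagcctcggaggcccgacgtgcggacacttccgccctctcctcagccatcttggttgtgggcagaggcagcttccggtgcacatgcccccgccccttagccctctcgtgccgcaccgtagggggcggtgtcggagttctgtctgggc

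EGR1 (chr5:138465229-138465528, plus strand) held 2 CArG boxes, CCATATTAGG and CCATATATGG, beginning 105 and 83 bases before the start. A CArG box was found in 1.29% of the 35116 windows of this length in the table, and in no other member's window. The window of EGR1 also had 2 CRE cores and 1 EGR site, which 7.98% and 9.43% of all windows hold. FOS (chr14:75278578-75278877, plus strand) held a CRE core 64 bases and a TATA box 33 bases before the start, and FOSB held the same pair at 60 and 30 bases. The TATA box was in 11.5% of all windows. JUNB (chr19:12791236-12791535, plus strand) held a TATA box 31 bases before its start. JUND (chr19:18281573-18281872, minus strand) was the only member with a whole CRE, found in 1.85% of windows, and had no TATA box match. The windows of JUN and of IER2 (chr19:13150161-13150460, plus strand) held none of the letters searched, and one of the ATF3 windows held a TATA match 230 bases before its start. An absent match says only that these letters are not in this window.

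Long reads also show which transcript carries each member. JUN, JUNB, JUND and EGR1 had 1 listed transcript each, and JUN, JUNB and JUND consist of 1 exon. For FOS, ENST00000303562 with 4 exons held 92.8% in ERBB2-high (89.1 to 95.4%), 89.8% in RARRES2-high (83.7 to 94.7%) and 86.5% in FOLR1-high cells (79.4 to 92.0%). IER3 was carried by ENST00000259874, from which an intron (30744197 to 30744308) is removed. This form held 94.3% in ERBB2-high (93.5 to 95%), 93.6% in RARRES2-high (91.5 to 95.4%) and 94.3% in FOLR1-high cells (91.3 to 96.7%), whereas the 1-exon ENST00000376377 held 5.70, 6.35 and 5.69%. Only 25.3% and 26.3% of their counts came as whole counts, so these shares are mostly fractional estimates. The shares of these transcripts did not differ between lines beyond their intervals, although IER3 itself differed 16.7-fold.

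FOSL1 and IER2 were split about evenly between a pair of transcripts, and most of those counts were not whole numbers. The 4-exon FOSL1 transcript ENST00000312562 held 53.4% in ERBB2-high (47.2 to 59.6%) and 48.6% in RARRES2-high cells (44.6 to 52.6%), and only 25.4% of its counts came as whole counts. The remainder was almost all in the 2-exon ENST00000448083. For IER2, the spliced ENST00000292433 held 49.6, 49.9 and 49.2% in ERBB2-high, RARRES2-high and FOLR1-high cells, and the 1-exon ENST00000588173 held 50.3, 49.9 and 50.5%. Of their counts 42.8% and 42.4% were whole, so the even splits are mostly fractional estimates. In FOSB, 76.3% of the 163 counts over all barcodes lay on ENST00000590335, which ends at 45472081 inside an intron of the full-length forms, and 98.1% of these were whole counts.

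Detection per cell was compared after each cell was thinned to 2000 counts, which left 606 ERBB2-high, 443 RARRES2-high and 733 FOLR1-high cells and left out 42, 30 and 32. IER3 had a count in 82.3% of ERBB2-high cells (exact Clopper-Pearson interval 79.1 to 85.3%), 27.3% of RARRES2-high (23.2 to 31.7%) and 10.1% of FOLR1-high cells (8.01 to 12.5%). Without thinning the shares were 93.8, 54.3 and 27.5%. EGR1 was found in 27.6% of ERBB2-high cells (24.0 to 31.3%), 6.32% of RARRES2-high (4.24 to 9.01%) and 5.18% of FOLR1-high cells (3.69 to 7.05%), and unthinned in 50.9, 17.8 and 12.7%. FOSL1 was found in 26.2% of RARRES2-high cells (22.1 to 30.5%), 10.9% of ERBB2-high (8.52 to 13.6%) and 1.36% of FOLR1-high cells (0.656 to 2.49%), and unthinned in 51.8, 24.8 and 5.36%. JUND was detected in 37.5% of ERBB2-high, 34.9% of FOLR1-high and 12.2% of RARRES2-high cells, and unthinned in 65.3, 61.8 and 33.8%. No line is known to lack these genes, so no share for free RNA could be set beside them, and RGCC, ANKRD1 and MOXD1 were found in 0 to 4.48% of cells outside their line, unthinned.

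**Figure D2:**
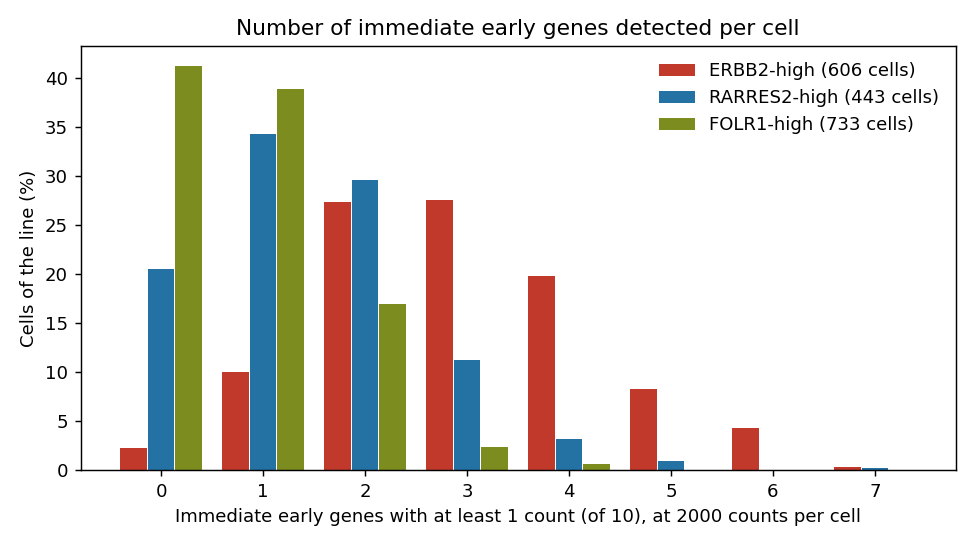
Percent of cells (y axis) with a given number of the 10 genes detected (x axis) after each cell was thinned to 2000 counts, by line. ERBB2-high cells centre on 3 genes and 2.31% have none, whereas 20.5% of RARRES2-high and 41.2% of FOLR1-high cells have none.

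At this equal depth a cell of the ERBB2-high line showed a median of 3 of the 10 genes, against 1 in each of the other lines. At least 3 genes were found in 60.2% of ERBB2-high cells, 15.6% of RARRES2-high and 3% of FOLR1-high cells. The highest number in 1 cell was 7, reached by 2 ERBB2-high cells and 1 RARRES2-high cell.

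IER3 had the highest ratio of variance to mean of the 10 genes in ERBB2-high and RARRES2-high cells, but not in FOLR1-high cells. The variance of its thinned counts was 2.05 times the mean in ERBB2-high cells, above 98.7% of the 5352 genes with a mean of at least 0.05 there, for which the median was 1.03. It was 1.75 in RARRES2-high cells and 1.02 in FOLR1-high cells, where FOSL1 had 1.32, FOS 1.23, IER2 1.17, JUNB 1.16, JUN 1.12 and JUND 1.09. FOSL1, FOS and JUNB had means under 0.05 there. Counting error alone gives 1, and the ratio can rise with the mean. IER3 had thinned means of 2.3, 0.415 and 0.108 counts per cell in ERBB2-high, RARRES2-high and FOLR1-high cells. Neither the ratios nor the ranks among genes were matched for level. A single ERBB2-high cell held up to 42 IER3 counts, and the highest 10% of cells held 31.1% of the gene's counts in that line. In RARRES2-high cells JUN and FOS had ratios of 1.52 and 1.51, above 96.4% and 96.3% of 4883 genes, FOS with a count in 32 thinned cells. JUND had a ratio of 1.04 there, level with the median of all genes at 1.04. EGR1 had 1.35 in ERBB2-high cells, above 95.5% of genes, but 0.949 in FOLR1-high cells. These ratios come from 1 thinning and carry no interval.

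Members were then compared pair by pair over the cells of each line, by Pearson's correlation of log1p counts per 10000. Among genes with a count in at least 10% of cells, 8 members gave 28 pairs in ERBB2-high cells, and 16 pairs reached 0.1, beside 2.79% of all gene pairs. In RARRES2-high cells 10 of 36 pairs did, beside 7.21%, and in FOLR1-high cells 2 of 15, beside 2.76%. The highest were EGR1 with IER2 in ERBB2-high cells at 0.23, FOSL1 with JUN in RARRES2-high cells at 0.22 and FOS with EGR1 at 0.20 in both of these lines. EGR1 with IER2 fell to 0.04 and FOSL1 with JUN to 0.09 in thinned cells. All were weak, and the cells share a library and differ in depth. After thinning to 2000 counts 4 of 28, 1 of 36 and 0 of 15 pairs reached 0.1, beside 1.41%, 3.10% and 1.02% of all pairs.

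**Figure D3:**
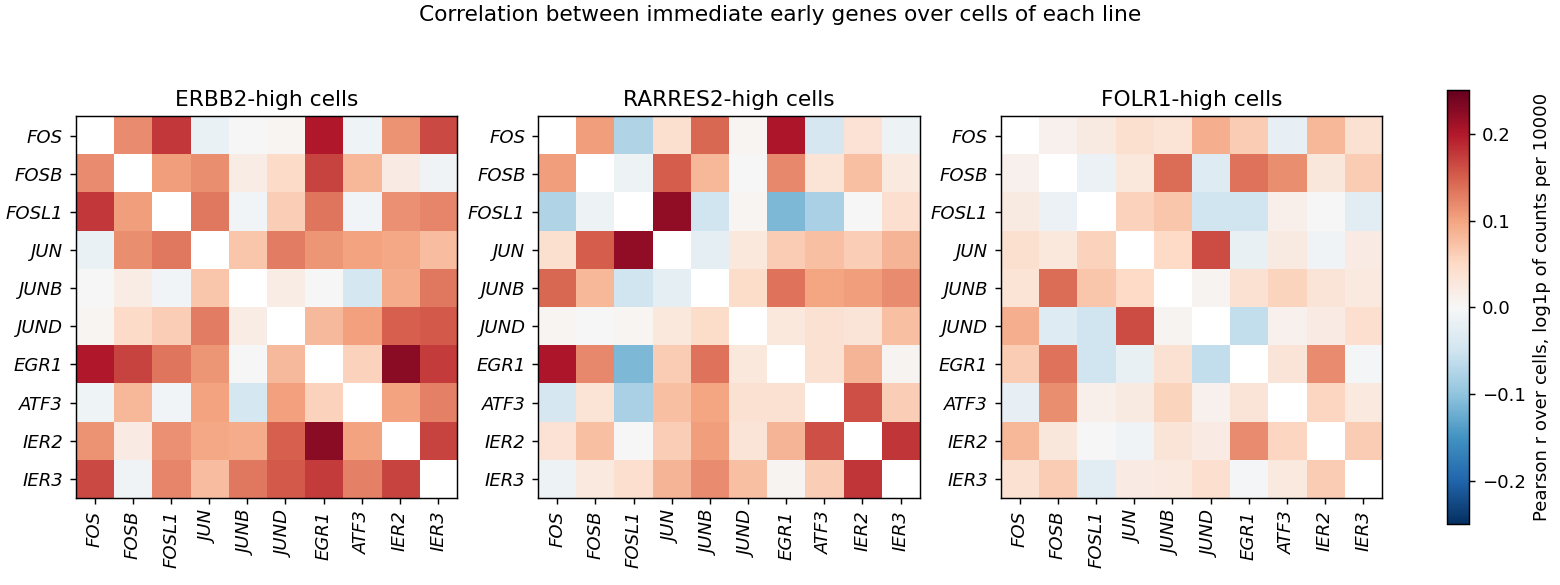
Pearson correlation between pairs of the 10 genes over the cells of each line, on log1p of counts per 10000 (colour, from -0.25 to 0.25). Warm colours prevail in ERBB2-high cells, where 16 of the 28 pairs of genes detected in at least 10% of cells reach 0.1, and FOSL1 stands off from EGR1 in RARRES2-high cells at -0.11.

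The 4 pairs left in ERBB2-high cells were FOS with IER3 at 0.13, EGR1 with IER3 at 0.12 and JUN with JUND and with EGR1 at 0.10 and 0.105. The pair left in RARRES2-high cells was FOS with EGR1 at 0.18. In thinned RARRES2-high cells EGR1 had a count in 6 of the 32 cells with FOS, or 18.8% (7.21 to 36.4%), and in 5.35% of the cells without FOS (3.38 to 7.99%), with intervals that overlapped slightly. In ERBB2-high cells EGR1 was in 33.3% of cells with FOS (24.0 to 43.7%) and 26.5% without (22.7 to 30.5%), again with overlap. In FOLR1-high cells the shares were 6.25% (0.766 to 20.8%) and 5.14% (3.62 to 7.04%). Cells with EGR1 in the ERBB2-high line had IER3 in 88.0% (82.1 to 92.5%), against 80.2% without EGR1 (76.1 to 83.8%), and these intervals overlapped too. FOSL1 with EGR1 had -0.11 in RARRES2-high cells, or -0.04 after thinning, and 0.13 in ERBB2-high cells.

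Pooling the lines changed the correlations. Of the 45 pairs of members, 19 had a higher value pooled than in every line, and 26 did not. JUN and JUND had 0.02 pooled and 0.16 in FOLR1-high cells. Over all 1886 cells IER2 and IER3 had a correlation of 0.45, against 0.17 in ERBB2-high, 0.18 in RARRES2-high and 0.06 in FOLR1-high cells. JUNB and IER3 had 0.44 pooled and 0.13, 0.12 and 0.02 by line. EGR1 and IER3 had 0.40 pooled and 0.17, 0.01 and -0.00283 by line.

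The depth of a cell moved with some members inside each line. FOSL1 went from 45.3 CPM (30.1 to 65.5) in the shallowest 216 ERBB2-high cells to 94.7 (80.9 to 110) in the deepest 216, each line being cut by total counts into 3 groups of equal size within 1 cell. It went from 132 (102 to 168) to 211 (191 to 233) in RARRES2-high cells and from 1.26 (0.0319 to 7.01) to 16.1 (11.4 to 22.1) in FOLR1-high cells. JUNB went the other way in ERBB2-high cells, from 230 (194 to 271) to 167 (148 to 187), and FOS in RARRES2-high cells from 63.0 (43.1 to 89.0) to 27.4 (20.4 to 36.0). JUN in ERBB2-high cells went from 138 (110 to 170) to 211 (190 to 234). IER2 in RARRES2-high cells went from 191 (155 to 233) to 111 (96.4 to 127), beside 110 in the deepest FOLR1-high cells. The sum of all 10 genes in the shallowest and deepest cells was 2628.4 and 2690.1 CPM in ERBB2-high cells, 1071.3 and 909 in RARRES2-high and 549 and 529 in FOLR1-high cells. The order of the lines was thus the same in shallow and in deep cells. The part of depth in the FOSL1 trend was not tested.

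**Figure D4:**
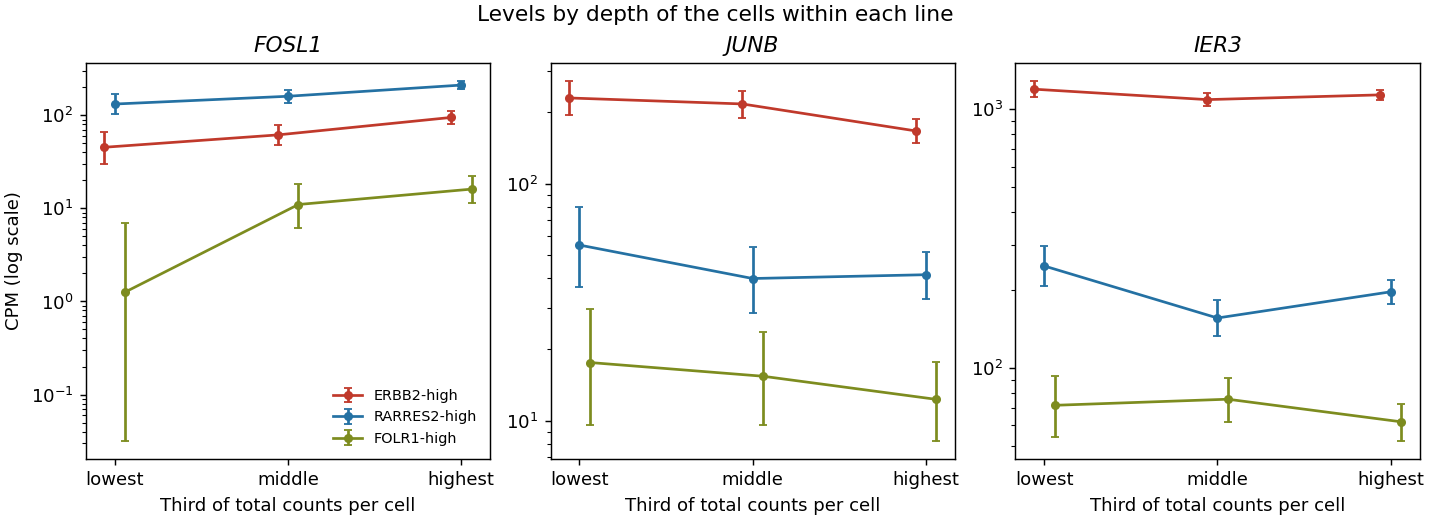
Level of FOSL1, JUNB and IER3 (CPM, log axes with their own ranges) in the shallowest, middle and deepest cells by total counts, for each line. Points are sums over the cells of a depth group and bars are 95% counting intervals. FOSL1 is higher in the deepest than in the shallowest cells in all 3 lines, from 45.3 to 94.7 CPM in ERBB2-high cells.

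Cells were also split by mitochondrial share, a sign of cell quality. In ERBB2-high cells the sum was 2768.6 CPM (2674.5 to 2865.2) in the 216 cells with the least mitochondrial RNA and 2362.5 (2270.5 to 2457.2) in the 216 with the most. In RARRES2-high cells the values were 941 (887 to 997) and 906 (847 to 968), and in FOLR1-high cells 520 (487 to 556) and 550 (511 to 592). Single members went both ways. FOSL1 had 94.0 and 48.5 CPM in ERBB2-high, 219 and 120 in RARRES2-high and 12.5 and 6.11 in FOLR1-high cells, the last with overlapping intervals. In RARRES2-high cells JUND had 56.6 (43.9 to 71.7) and 87.9 CPM (70.2 to 109), FOS 29.1 and 50.7 and FOSB 16.6 and 31, with intervals that overlapped for all 3. JUND in FOLR1-high cells had 214 (192 to 237) and 267 (239 to 296). IER2 and IER3 in ERBB2-high cells had 527 and 403 and 1198 and 1009.6 CPM, and JUN in RARRES2-high cells had 244 and 178. None of these intervals, from JUND in FOLR1-high cells on, overlapped. The part of cell quality in these values was not tested.

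Cells in which 10 mitotic genes held at least 0.2% of counts were set apart, a cut on a range of values. It set apart 95 of 648 ERBB2-high, 200 of 473 RARRES2-high and 136 of 765 FOLR1-high cells. Cells above the cut are high in mitotic gene RNA and are not known to be in mitosis. FOSL1 had 128 CPM (103 to 158) in the 95 ERBB2-high cells above the cut and 62.6 (53.6 to 72.6) in the other 553. In RARRES2-high cells it had 213 (191 to 237) and 158 (141 to 178), and in FOLR1-high cells 10.9 (5.21 to 20) and 12.2 (8.9 to 16.4), with overlapping intervals. FOS was lower in the ERBB2-high cells above the cut, with 51.6 CPM (36.0 to 71.8) against 91.9 (80.9 to 104). IER3 had 1007.8 (934 to 1086.3) against 1164.3 (1124.5 to 1205.3). These intervals leave out spread between cells, and the variance of thinned IER3 counts was 2.05 times the mean in ERBB2-high cells. JUN had 11.9 (5.96 to 21.4) and 34.5 CPM (28.7 to 41.1) in FOLR1-high cells. Cells above the cut were deeper, with a median of 7092 against 4735 counts in ERBB2-high cells, and the part of depth was not tested.

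FOLR1-high cells hold a state with more CXCL14 than CD44 and DEFB1 counts, 256 cells, and 509 others. IER3 had 109 CPM (92.2 to 128) in the CXCL14 state and 49.6 (42.1 to 58.0) in the others. FOS had 13.7 (8.24 to 21.4) and 34.5 (28.3 to 41.7), and FOSL1 had 1 count in the CXCL14 state (0.721 CPM, 0.0182 to 4.02) and 53 in the others (16.9 CPM, 12.7 to 22.2). JUN, JUND, EGR1 and IER2 had overlapping intervals.

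Other early response and pathway genes were read from lists chosen with earlier results of these data known, and counted as above at 2-fold. Of 13 tested early response transcription factors, 7 were higher and 1 lower in ERBB2-high than in FOLR1-high cells, and 5 higher and 1 lower than in RARRES2-high cells. Among all genes 14.2% were higher and 5.37% lower in the first and 11.2% and 8.06% in the second. Of those higher, KLF4, CEBPB and SNAI2 in the first and CEBPB and SNAI2 in the second passed the count minimum only through ERBB2-high cells, so these counts are a description and nothing is read from them. BHLHE40, a repressor of the circadian and hypoxia responses, had 160 CPM in ERBB2-high, 37.0 in RARRES2-high and 17.1 in FOLR1-high cells. CEBPD, a factor of the acute phase response, had 140, 9.18 and 25.5 CPM, and ID1, an inhibitor of helix-loop-helix factors, had 1855.1, 943 and 490. Its relative ID3 was lowest in ERBB2-high cells, at 147 against 314 and 311. KLF6, a zinc finger factor, had 124, 87.9 and 77.5 CPM.

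Of 23 tested early response genes of other kinds, 8 were higher and 4 lower in ERBB2-high than in FOLR1-high cells, and 5 were higher and 4 lower than in RARRES2-high cells. Among all genes 14.2% were higher and 5.37% lower in the first, and 11.2% and 8.06% in the second. The 4 lower in the first, BTG2, SGK1, NFKBIZ and SOCS3, passed the count minimum only through FOLR1-high cells. Of the 4 lower in the second, CTGF and TNFAIP3 passed it only through RARRES2-high cells. These counts are therefore a description and nothing is read from them. Their median log2 ratios were 0.42 and 0.14, beside 0.32 and 0.15. PHLDA1, a target of ERK signalling, had 1068.7 CPM in ERBB2-high, 187 in RARRES2-high and 30.8 in FOLR1-high cells, the same order as IER3. ZFP36L1, which destabilises AU-rich messages, had 720, 146 and 363 CPM, and the stress gene GADD45A had 232, 111 and 74.0. PLK2 was highest in RARRES2-high cells, at 530 against 170 and 58.7, and the chemokine CXCL1 had 263 and 250 against 5.76 in FOLR1-high cells. Among 10 tested AP-1 and ATF partners, 4 were higher and 0 lower in ERBB2-high than in FOLR1-high cells. This stood beside 14.2% higher and 5.37% lower among all genes, and MAFF, 1 of the 4, passed the count minimum only through ERBB2-high cells. DDIT3, a stress factor, had 367, 56.8 and 64.0 CPM in ERBB2-high, RARRES2-high and FOLR1-high cells, and ATF5 had 67.7, 71.3 and 27.

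MAP kinase feedback genes, which limit ERK signalling, had no common direction. Of 13 tested, 3 were higher and 3 lower in ERBB2-high than in FOLR1-high cells, beside 14.2% and 5.37% of all genes, with a median log2 ratio of 0.33, beside 0.32 over all genes. DUSP6, an ERK phosphatase, had 63.3 CPM in ERBB2-high, 55.1 in RARRES2-high and 259 in FOLR1-high cells. SPRY1 and SPRY2, inhibitors of receptor signalling, had 204 and 122 CPM in FOLR1-high cells, against at most 31.1 and 17.5 in the other lines. By contrast ERRFI1, which restrains ERBB receptors, had 74.7 CPM in ERBB2-high, 11.2 in RARRES2-high and 8.86 in FOLR1-high cells, and passed the count minimum only through the first. DUSP4 had 27, 68.4 and 19.3.

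Of the MAP kinase and serum response route, 17 genes were tested, and 3 were higher and 0 lower in ERBB2-high than in FOLR1-high cells, beside 14.2% and 5.37% of all genes. Their median log2 ratio was 0.67, beside 0.32 over all genes, and the share higher was near that of all genes. EGFR had 68.6, 147 and 43.4 CPM and the ETS factor ELK3 45.9, 70.8 and 14.0 in ERBB2-high, RARRES2-high and FOLR1-high cells. Of 9 tested heat shock genes, 3 were higher and 1 lower in ERBB2-high than in FOLR1-high cells, and 1 higher and 3 lower than in RARRES2-high cells, beside 14.2% and 5.37% of all genes in the first and 11.2% and 8.06% in the second. Their median log2 ratios were 0.425 and -0.48, beside 0.32 and 0.15. HSPH1 had 165, 290 and 57.1 CPM. HSPA1A had 22.1, 114 and 5.76 CPM and HSPA1B 4.94, 36.7 and 30.6, but their near-identical sequences make the split between them uncertain.

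The genes whose counts followed the summed members most closely over cells were found among 4392 genes with a count in at least 10% of the cells of every line. Correlation was averaged over the 3 lines with equal weight. PHLDA1 led with a mean of 0.23, made of 0.43 in ERBB2-high, 0.19 in RARRES2-high and 0.08 in FOLR1-high cells. TNFRSF12A, the receptor of TWEAK, had 0.20, the histone gene H3F3B 0.20, of which 0.45 in RARRES2-high cells and at most 0.09 in the others, PMAIP1, which encodes the BH3 protein NOXA, 0.18 and KLF6 0.17. EIF1, MALAT1, HIST1H4C, DDX5 and NEAT1 followed at 0.15 to 0.16. NEAT1 had 0.00853 in ERBB2-high, 0.27 in RARRES2-high and 0.172 in FOLR1-high cells, and MALAT1 had 0.0654, 0.282 and 0.135. IER3 made up 43.2% of the summed members in ERBB2-high cells, so the values there lean on that gene. The median over all 4392 genes was 0.03, and 89 of them, or 2.03%, reached 0.1. These correlations were not thinned, and the cells share a library.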

How the data were processed

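The PromethION matrix holds estimated counts per transcript and barcode that the authors deposited, without normalisation. Isosceles is named in the series' design text, and GRCh38 and Cell Ranger 6.0.1 in the submitters' processing notes. No source used here gives the aligner, how molecular identifiers were handled or how cells were called. Only 39.8% of the 8294569 entries were whole within 1e-06, but sums per gene were whole and were used.

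The members, lists and tests were chosen with earlier results of these data known. Barcodes ran from 1 to 25670 counts, with a median of 4914.5, and 1886 of the 2129 barcodes with at least 1000 counts fell into the 3 lines. Doublets were not removed beyond the marker rule, and Scrublet in scanpy 1.11.5 called 77 barcodes, 30 of them in the lines, which were left out as an alternative. Intervals are exact Poisson for sums and exact Clopper-Pearson for shares, at 95%, and cover counting error only. If molecular identifiers were not collapsed, the intervals of counts are too narrow even for that. Thinning was without replacement with seed 0. Scripts were tested on simulated data. Transcript and exon annotation came from GENCODE release 29 and promoters from RefSeq. The CRE core was searched and the sum without IER3 computed only after values had been seen. All 10 members were named. The genes most like them were the 10 with the highest mean correlation. From each related list, at most 5 genes by counts were named that passed 2-fold in at least 2 pairs of lines or had a mean correlation of at least 0.1. A gene of the MAP kinase route that the rule also names is not reported here.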

Additional observations from a re-analysis of the deposited data

How the results depend on the processing

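No paired analysis was possible because counts from 1 library only were used, although the barcodes of both libraries are shared. Summed levels of the 10 genes stayed within their counting interval in 23 of 30 alternatives. They moved to 3083.5, 1129.5 and 805 CPM in ERBB2-high, RARRES2-high and FOLR1-high cells with mitochondrial and ribosomal protein genes left out of the totals, which are then smaller. A marker share of at least 90% gave 2681 CPM in ERBB2-high cells. The sum without IER3, an added setting chosen once values were known, was 1492.6, 733 and 466. The order of the lines was kept in each of these. Of the counts of members past 2-fold, 28 of 30 stayed within 1.5 times. Those lower in ERBB2-high than in RARRES2-high cells went from 1 to 2 with 1 CPM added, FOSB joining FOSL1. FOS also passed 2-fold for ERBB2-high over RARRES2-high cells at that setting, from 0.937 to 1.08 on the log2 scale. Its ratio with no CPM added was 2.15 (1.74 to 2.66). Those higher in RARRES2-high than in FOLR1-high cells went from 5 to 3 with a marker share of at least 90%, where FOSB had 73 counts, under the minimum of 100, and JUNB lay just under 2-fold. With mitochondrial and ribosomal protein genes left out of the totals JUNB also lost that call, at 0.992 on the log2 scale, and FOSB gained one for ERBB2-high over FOLR1-high cells, from 0.94 to 1.02. No ratio past 2-fold reversed.

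Pairs with a correlation of at least 0.1 fell from 16 to 4, 10 to 1 and 2 to 0 on thinned counts. The variance over the mean of IER3 was 1.47, 1.22 and 1.14 at 1000 counts per cell. Cells with any member were 97.7, 79.5 and 58.8% at 2000 counts, 98.8, 92.8 and 84.8% without thinning and 88.9, 56.2 and 37.5% at 1000 counts, in the same order of lines. Shares of cells and correlations thus moved with the depth they were computed at.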

Other observations

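Barcodes that the marker rule left in no line also held the 10 genes. The 243 such barcodes with at least 1000 counts had a sum of 1132.5 CPM (1081 to 1185.7), with IER3 at 325 CPM (298 to 354), JUNB at 60.4 (48.9 to 73.6) and FOSL1 at 114 (98.5 to 132). Each of these values lay between the lowest and the highest of the 3 lines. Scrublet called 37 of these barcodes as doublets. The 333 barcodes under 1000 counts held 145 counts of the 10 genes, or 1313.2 CPM (1108.1 to 1545.1), with a median mitochondrial share of 8.93%. IER3 made 54 of these counts (489 CPM, 367 to 638), and ATF3 was at 0.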
